A study of Mus musculus with 2 samples.

Results

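Retinoic acid is a signal made from vitamin A, and 9 genes of its synthesis, breakdown and response were read here in embryonic mouse ureters treated with BIO. They are the retinaldehyde dehydrogenase genes *Aldh1a1*, *Aldh1a2* and *Aldh1a3*, the retinoic acid hydroxylase genes *Cyp26a1*, *Cyp26b1* and *Cyp26c1*, the retinol uptake receptor gene *Stra6*, the retinaldehyde reductase gene *Dhrs3* and the retinoic acid receptor gene *Rarb*. They were taken by gene name, in a choice made with earlier results of these data known. The array holds 29924 gene names, of which 21598 could be tested, and the 9 genes are read by 11 probes, 3 of them for *Rarb* and 1 for each other gene.

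Ureters of wildtype NMRI embryos at E12.5, of undetermined sex, had been cultured as explants for 18 h without serum, either with 10 µM BIO or with the solvent DMSO at 2 parts per 1000. BIO (6-bromoindirubin-3-oxime) blocks GSK3, a kinase that marks beta-catenin for breakdown, and is a standard agonist of canonical WNT signaling. It was given to the whole explant, epithelium and mesenchyme together. Each RNA came from a pool of ureters, and both RNAs of a replicate were hybridized to the same 2-color array. There were 2 arrays, here array 1 (replicate 1), on which the BIO RNA was red, and array 2 (replicate 2), on which it was green.

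In vitamin A metabolism, retinol enters cells through STRA6, is oxidized to retinaldehyde by retinol dehydrogenases such as RDH10, and is turned into retinoic acid by the ALDH1A enzymes. DHRS3 acts in the opposite direction and reduces retinaldehyde to retinol, and the CYP26 enzymes hydroxylate retinoic acid and so clear it. Retinoic acid binds receptors of the RAR family, which pair with RXR on direct repeats in DNA, and *Rarb*, *Cyp26a1*, *Dhrs3* and *Stra6* are classical genes induced by it. In the developing urinary tract, retinoic acid made in the mesenchyme is known to be needed for growth of the ureteric epithelium and for *Ret* expression there.

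Such direct repeats were looked up in the RefSeq promoter table of GRCm38.p6, in the 250 bases before each start. The letters searched were AGGTCA, its variant GGGTCA, the further variant AGTTCA and the last variant GGTTCA, any of them present as a pair in the same direction with 5 bases between, on either strand. The table held no window of *Aldh1a3*, whose promoter was therefore not searched, and 14 windows of the other 8 of the 9 genes. Among these, 2 windows had the repeat, 1 of *Cyp26a1* and 1 of *Rarb*, while 0.0883% of all 32851 windows had it. The windows of both genes are shown because they carry the element through which retinoic acid receptors are known to act, and capitals mark the paired letters. The *Cyp26a1* window lies on the plus strand at chr19:37697558-37697807 and holds the repeat on the opposite strand, 32 to 16 bases before the start. The *Rarb* window lies on the minus strand at chr14:16575477-16575726 and holds the repeat on its own strand, 53 to 37 bases before the start.
*Cyp26a1*: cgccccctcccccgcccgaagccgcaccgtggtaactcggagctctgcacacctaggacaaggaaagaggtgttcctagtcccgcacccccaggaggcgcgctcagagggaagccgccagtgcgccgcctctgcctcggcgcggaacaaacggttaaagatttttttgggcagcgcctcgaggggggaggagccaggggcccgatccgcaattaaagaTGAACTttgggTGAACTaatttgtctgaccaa
*Rarb*: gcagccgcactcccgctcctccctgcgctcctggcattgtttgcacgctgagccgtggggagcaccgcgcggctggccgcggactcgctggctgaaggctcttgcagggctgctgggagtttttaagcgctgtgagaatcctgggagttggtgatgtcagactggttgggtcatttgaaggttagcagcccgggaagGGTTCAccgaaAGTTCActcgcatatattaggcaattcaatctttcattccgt

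The same search with 1 or 2 bases between the pair gave 0 of the 14 windows, against 0.164% and 0.174% of all windows. The letters CTTTGAA or CTTTGAT, which TCF and LEF factors bind, were present on either strand in 5 of the 14 windows, those of *Aldh1a1*, *Cyp26c1*, *Dhrs3* with 2 windows and *Stra6*, against 7.48% of all windows. The 2 *Dhrs3* windows overlap and hold the same match, so that 1 site is counted in both. A match of letters is a description of the window and not a measured binding site.

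The values given next are processed signals, meaning spot brightness after background subtraction and dye normalization by the scanner software, and log2 ratios of BIO over control computed from the mean spot intensities. A gene is called risen or fallen when the limma test across all 28824 tested probes gave an adjusted p below 0.05. Of the 9 genes, 2 rose with BIO (*Aldh1a3* and *Stra6*), 4 fell (*Aldh1a2*, *Cyp26a1*, *Cyp26b1* and *Dhrs3*), 2 were not called (*Aldh1a1* and *Rarb*) and *Cyp26c1* was too dim to test. Among all tested genes 23.9% were called, 9.14% as risen and 14.8% as fallen, and among all tested probes 23.2%. This was 1974 genes risen and 3186 fallen, while the deposited scores gave 1931 and 1320. Those scores are rounded. For them limma drew only 0.426 degrees of freedom from all probes together, against 7.14 in the main fit. A call with the scores therefore depends mostly on how near the scores of a gene on the 2 arrays are. The median log2 ratio of the 8 tested genes was -0.14, and that of all tested genes was -0.01. Only *Aldh1a3* also passed the fold rule used in the study on other arrays, at least 2-fold the same way on both arrays with the brighter channel at 100 or more, a rule met by 2.22% of all genes, 0.752% higher and 1.47% lower with BIO.

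The arrays held RNA of whole explants, in which fewer cells of a type and less RNA per cell cannot be told apart. All 6 WNT target genes of the marker list rose, with a median log2 ratio of 1.73. Of 10 markers of ureteric epithelium 5 fell and 0 rose, while *Epcam* stood at 0.02, and the summed processed signal of the list went from 88873 to 53490 and from 90750 to 63339. Of 10 markers of ureteric mesenchyme, the tissue known to express *Aldh1a2* and *Rarb*, 8 fell, with a median of -0.64 over the list. The 2 not called were *Tbx18* (-0.22) and *Ptch1* (0.08). The summed processed signal of the list went from 353502 to 218152 and from 385025 to 237924. All 8 endothelial markers fell, with a median of -2.01, and their summed processed signal went from 24576 to 4284 and from 29251 to 8277. Of the other lists, 1 of 8 kidney markers rose and 3 fell, and 2 of 6 nerve markers, 3 of 5 tested macrophage markers and 2 of 6 erythroid markers fell. The part of these shifts in the falls of *Aldh1a2*, *Cyp26b1*, *Cyp26a1*, *Dhrs3*, *Rdh10*, *Ret*, *Meis1* and *Meis2* was not tested.

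**Figure D1:**
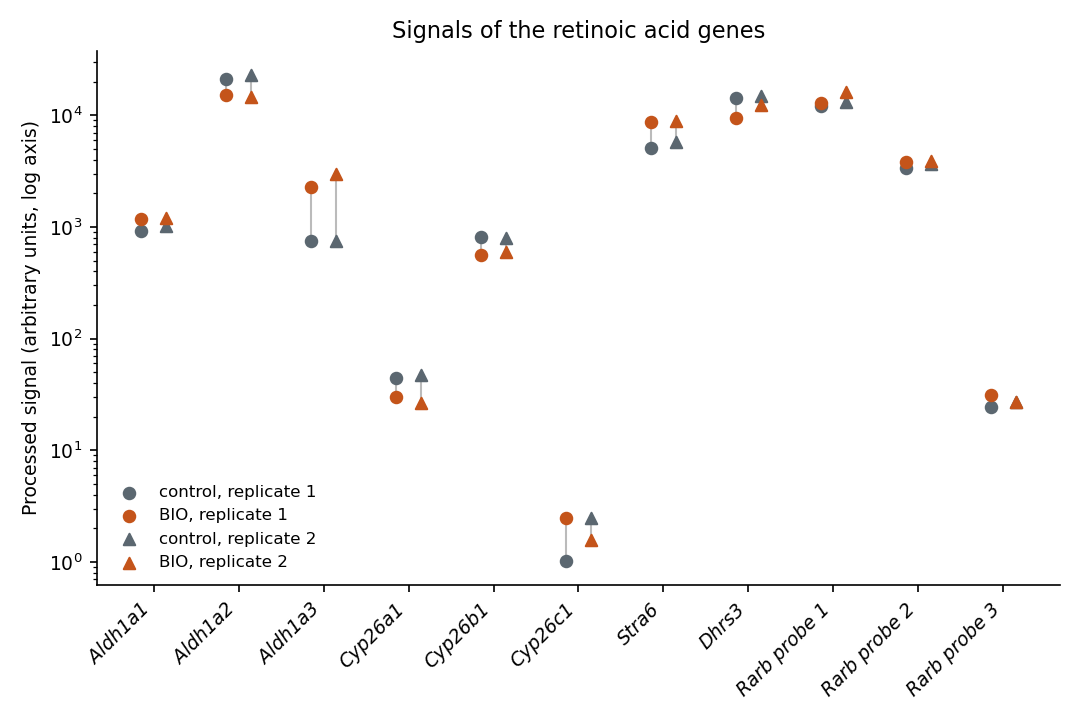
Processed signal (arbitrary units, log axis) of each of the 11 probes of the 9 retinoic acid genes, in the control and the BIO channel of both arrays, each point being the mean of the spots of a probe. *Aldh1a3* has its 2 BIO signals, 2293 and 2983, far above its control signals of 754 and 753, and *Cyp26c1* lies near the bottom of the axis in all channels. Heights of different probes are not comparable.

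Among the synthesis enzymes, *Aldh1a3* had the largest change of the 9 genes. Its probe, at chr7:73535785-73535844 of mm9, went from 754 (control) to 2293 (BIO) in processed signal on array 1 and from 753 to 2983 on array 2. The BIO signal was the higher one on both arrays, and the control signals were nearly equal. The log2 ratios were 1.54 and 1.92, with a mean of 1.73 ± 0.13 (SE, n = 2 arrays; limma adjusted p = 0.0001), which is 3.32-fold. Of all tested genes, 99.9% had a lower ratio. The call was lost only with the deposited scores (adjusted p = 0.126). The 4 spots of replicate 1 ranged from 1.52 to 1.58 and those of replicate 2 from 1.82 to 1.98, so the arrays differed by more than the spots within each.

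*Aldh1a2*, whose enzyme is the main source of retinoic acid in embryonic mesenchyme, went the other way. Its probe at chr9:71143931-71143990 went from 21275 (control) to 15190 (BIO) in processed signal on array 1 and from 22924 to 14650 on array 2. The BIO signal was the lower one on both arrays. The log2 ratios were -0.59 and -0.62, with a mean of -0.61 ± 0.11 (SE, n = 2 arrays; limma adjusted p = 0.0053), a signal 1.52-fold lower, and in replicate 2 it rests on 3 spots because 1 was marked as an outlier. The call was lost with median centering (adjusted p = 0.186), with processed signals (0.0619) and with the deposited scores (0.160), while the sign stayed.

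*Aldh1a1*, the third dehydrogenase gene, was not called. Its probe at chr19:20717764-20717823 went from 928 (control) to 1178 (BIO) in processed signal on array 1 and from 1023 to 1204 on array 2. The BIO signals were the higher ones on both arrays. The mean log2 ratio was 0.24, with a 95% interval from -0.01 to 0.49 and a limma adjusted p of 0.148, so at 2 arrays a difference of the size of that of *Aldh1a3* lies outside the interval, and a rise of up to 0.49 does not.

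**Figure D2:**
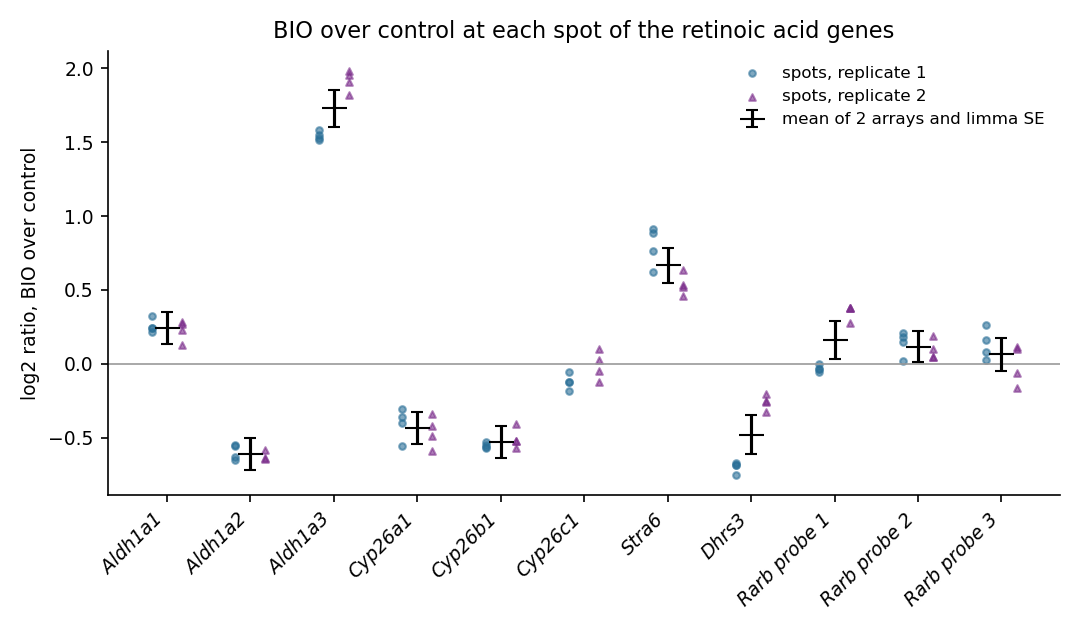
Log2 ratio of BIO over control at each spot (circles for replicate 1, triangles for replicate 2) of the 11 probes, with the mean of 2 arrays and its limma standard error as a black bar where the probe was tested. All spots of *Aldh1a3* and *Stra6* lie above 0, all spots of *Aldh1a2*, *Cyp26a1*, *Cyp26b1* and *Dhrs3* lie below 0, and the *Dhrs3* spots of the 2 arrays are apart.

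Of the genes of the clearing enzymes, *Cyp26b1* fell. Its probe at chr6:84521952-84522011 went from 810 (control) to 565 (BIO) in processed signal on array 1 and from 792 to 592 on array 2. On each array the BIO signal was the lower one. The log2 ratios of -0.55 and -0.51 gave a mean of -0.53 ± 0.11 (SE, n = 2 arrays; limma adjusted p = 0.0100), a signal 1.44-fold lower. The call was lost with processed signals (adjusted p = 0.0708) and with the deposited scores (0.126).

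*Cyp26a1*, with the repeat shown above, fell as well, at dim signals. At chr19:37775566-37775625 of mm9 the probe went from 44.1 (control) to 29.8 (BIO) in processed signal on array 1 and from 47.4 to 26.7 on array 2. Within each array the BIO signal was the lower one. The log2 ratios were -0.41 and -0.46, with a mean of -0.43 ± 0.11 (SE, n = 2 arrays; limma adjusted p = 0.0234). The offset added in background correction pulls dim ratios toward 0, and the mean was -0.70 with processed signals (adjusted p = 0.0584), -0.48 with median centering (0.142) and -0.72 with the deposited scores (0.162), none of which was called. *Cyp26c1* was not well above background in either channel of either array, with processed signals from 1.03 to 2.49, and no fold is given.

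*Stra6*, whose product takes up retinol from its plasma carrier, rose. Its probe at chr9:58001701-58001760 went from 5075 (control) to 8688 (BIO) in processed signal on array 1 and from 5764 to 8797 on array 2. On each array the BIO signal was the higher one. The log2 ratios were 0.80 and 0.54, with a mean of 0.67 ± 0.12 (SE, n = 2 arrays; limma adjusted p = 0.0050), which is 1.59-fold. Of all tested genes, 97.1% had a lower ratio. The call was lost only with the deposited scores (adjusted p = 0.135). With a minimum of 1.5-fold in the rule without a test, *Stra6* joined *Aldh1a3*.

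*Dhrs3* fell by an amount that differed between the arrays. Its probe at chr4:144517485-144517544 went from 14171 (control) to 9420 (BIO) in processed signal on array 1 and from 14928 to 12258 on array 2. The BIO signal was lower within each array. The log2 ratios of -0.70 and -0.26 had a mean of -0.48 ± 0.13 (SE, n = 2 arrays; limma adjusted p = 0.0338). The 4 spots of replicate 1 lay between -0.75 and -0.67 and those of replicate 2 between -0.33 and -0.20. Among the 7 alternative processings plotted at the end, the call held with outlier spots kept and was lost in the others, with an adjusted p of up to 0.298.

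*Rarb*, the receptor gene with the other repeat shown above, was not called at any of its 3 probes. The brightest probe, at chr14:17263367-17263426 of mm9, went from 12112 (control) to 12971 (BIO) in processed signal on array 1 and from 13078 to 16308 on array 2. The log2 ratios, -0.03 and 0.35, differed in sign, while those of the median-centered processed signals, 0.10 and 0.32, did not. The mean was 0.16, with a 95% interval from -0.13 to 0.45 and a limma adjusted p of 0.414. The second probe, at chr14:17264648-17264707, gave a mean of 0.12 (interval -0.13 to 0.37), and the third, at chr14:17651424-17651483, which reads longer transcripts from an earlier start and had processed signals of only 24.5 to 31.0, gave 0.07 (interval -0.19 to 0.32). A fall of the size of that of *Aldh1a2* lies outside the interval of each probe.

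**Figure D3:**
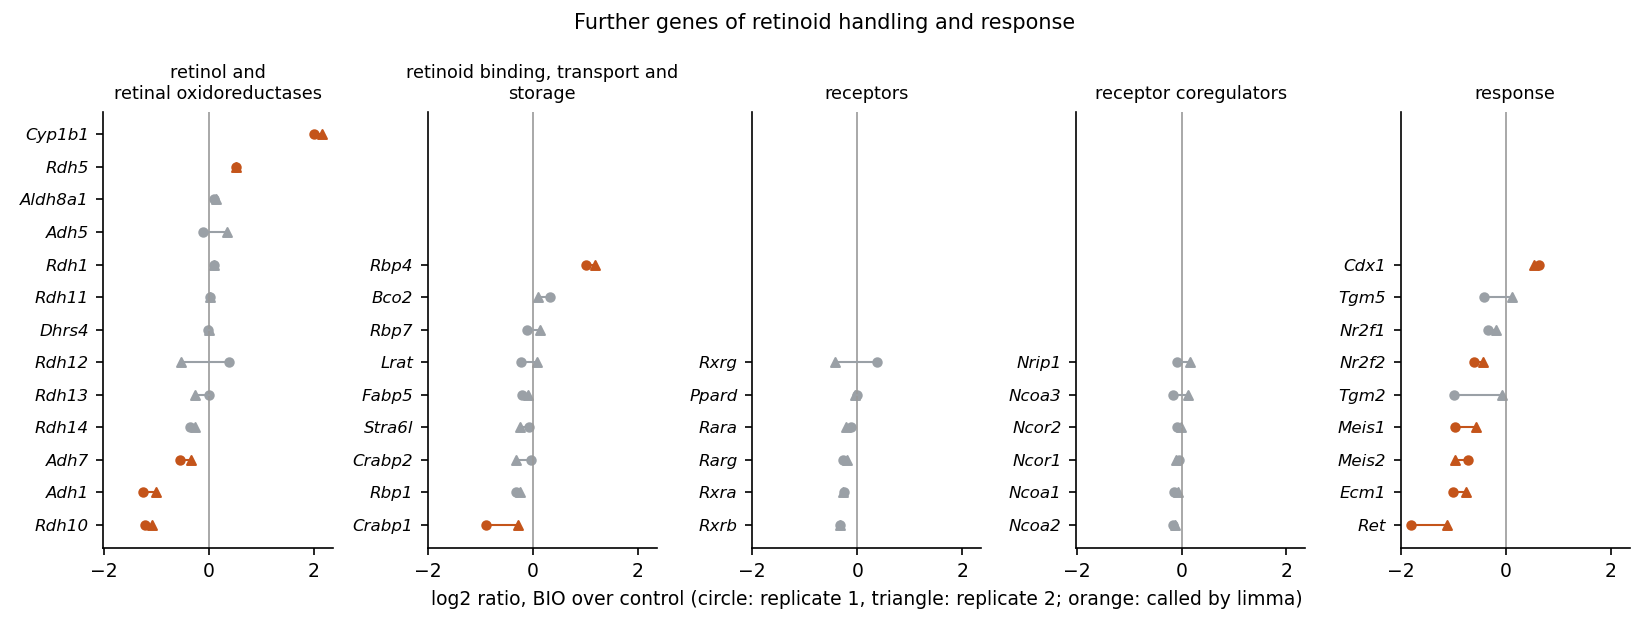
Log2 ratio of BIO over control in replicate 1 (circle) and replicate 2 (triangle) for the tested genes of 5 further lists, 1 response gene left out, with called genes in orange and the others in gray. The oxidoreductases, the binding, transport and storage genes and the response genes hold called genes on both sides of 0. The 6 receptors and the 6 coregulators hold none.

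The wider retinoid pathway was described with 5 lists of 52 further genes, of which 44 were tested. Of these 4 rose and 9 fell, with the array-wide shares at 9.14% and 14.8%, and the median log2 ratio was -0.14. In the list of retinol and retinal oxidoreductases, 2 of 13 tested genes rose and 3 fell. *Rdh10*, the retinol dehydrogenase that feeds the ALDH1A enzymes in the embryo, went from 3804 (control) to 1715 (BIO) in processed signal on array 1 and from 3775 to 1763 on array 2. It fell to a mean log2 ratio of -1.14 ± 0.11 (SE, n = 2 arrays; limma adjusted p = 0.0003) and was called in all 7 alternatives. *Adh1*, a cytosolic retinol-oxidizing alcohol dehydrogenase, fell to -1.13 and was called in 6 of 7, and *Cyp1b1*, a cytochrome P450 that can also make retinoic acid from retinol, rose to 2.09.

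In the list of binding, transport and storage genes, 1 of 9 tested genes rose and 1 fell. *Rbp4*, the plasma carrier from which STRA6 takes retinol, rose with log2 ratios of 1.00 and 1.18 at processed signals of 171 to 534. *Crabp1*, a cytosolic retinoic acid binding protein, fell to a mean of -0.59 with arrays at -0.90 and -0.28, and was called in 3 of 7 alternatives.

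Of the 6 receptor genes tested, 0 were called, and 2 had an unadjusted limma p below 0.05. The mean log2 ratios were -0.16 for *Rara*, -0.23 for *Rarg*, -0.26 for *Rxra*, -0.33 for *Rxrb*, -0.02 for *Rxrg* and -0.03 for *Ppard*. *Rxrb* was nearest to the threshold with a limma adjusted p of 0.0629, and *Rxrg* had opposite signs on the arrays, 0.38 and -0.42. With the deposited scores *Rxra* (-0.26) and *Rxrb* (-0.38) were called as fallen, both with a limma adjusted p of 0.0342. Because the scores are rounded, equal scores on both arrays can be called even at a small ratio. Of the 6 receptor coregulator genes, 0 were called, 0 with an unadjusted limma p below 0.05, while *Ncoa2* was called as fallen with the deposited scores (-0.14, limma adjusted p = 0.0478).

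In the list of further genes known to respond to retinoic acid, which holds none of the 9 genes, more fell than rose in the main processing. Of 10 tested, 1 rose and 5 fell, with the array-wide shares at 9.14% and 14.8%. With processed signals only *Ecm1* and *Meis2* of these 5 were called as fallen, and with the deposited scores none of them was. Over the list the median log2 ratio was -0.53, and *Stra8* and *Hoxb1* were not well above background. *Ret*, a receptor tyrosine kinase of the ureteric epithelium, went from 1471 (control) to 428 (BIO) in processed signal on array 1 and from 1703 to 801 on array 2. Its log2 ratio was -1.46 ± 0.16 (SE, n = 2 arrays; limma adjusted p = 0.0006), but the call was lost with processed signals (adjusted p = 0.0517) and with the deposited scores (0.229).

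The others that fell were *Ecm1* (-0.89), which encodes an extracellular matrix protein, the homeobox genes *Meis2* (-0.84) and *Meis1* (-0.77), and *Nr2f2* (-0.52), which encodes the nuclear receptor COUP-TFII. *Ecm1* and *Meis2* were called in 6 of 7 alternatives, *Meis1* and *Nr2f2* in 4. *Cdx1*, a homeobox gene that both retinoic acid and WNT signals are known to induce, rose to 0.58 at dim processed signals of 13.1 to 35.9. Its mean log2 ratio was 1.22 with processed signals and 0.85 with the deposited scores, and it was called in all 7 alternatives. *Tgm2*, a transglutaminase gene, was not called, with log2 ratios of -0.98 and -0.08, but was called as fallen with median centering (-0.60, limma adjusted p = 0.0451). In that setting the difference between its arrays did not enter the test. *Nr2f1* (-0.26) and *Tgm5* (-0.15) were not called either, and for *Tgm5* the arrays differed in sign.

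**Figure D4:**
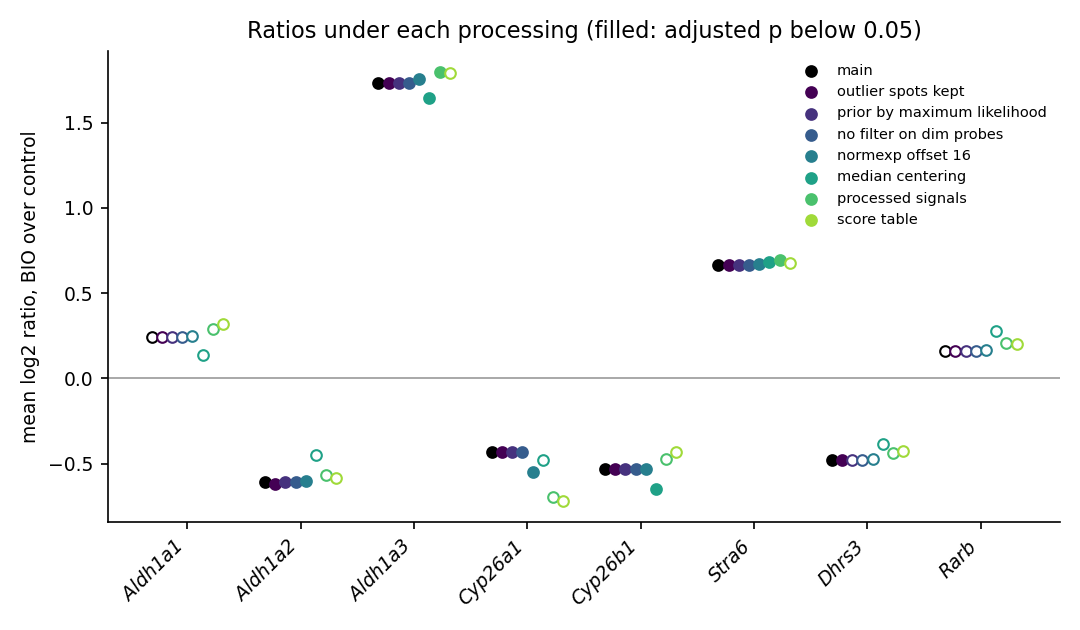
Mean log2 ratio of BIO over control of the 8 tested genes under the main processing and 7 alternatives, with filled points where the limma adjusted p was below 0.05 and open points elsewhere. Every gene kept its sign under all of them, *Aldh1a3* and *Stra6* are open only with the deposited scores, and *Dhrs3* is filled in the main processing and with outlier spots kept.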

How the data were processed

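The authors hybridized Agilent 2-color arrays and, per the file headers, read spot intensities with Agilent Feature Extraction 10.7.3.1. The deposited intensities are mean spot signals, local background medians and processed signals, with coordinates in mm9 (NCBI37). The authors also deposited a table of 1 score per probe and array, a rounded signed fold of BIO over control. Its making is not given in the sources used here, and its column medians are both 1. Each probe has 4 spots. Mean intensities were corrected by normexp (offset 50) and normalized by loess within arrays, with control and outlier spots at weight 0. Remaining spots were averaged. Tested probes were well above background in more than 0.5 of the spots in 1 condition on both arrays. The swapped array was turned, and log2 ratios were tested against 0 with limma 3.58.1 (R 4.3.3, lmFit, eBayes, Benjamini-Hochberg at 0.05). Tested on simulated ratios of 2 arrays, with far fewer changed probes than were called here, the fit called more false probes than the nominal share. The adjusted p values here may therefore be too small, which matters most just below 0.05, and a prior fitted by maximum likelihood was added. Both arrays lay on 1 slide scanned together. The arrays had 80.9% and 73.7% of control-channel and 70.1% and 78.1% of BIO-channel spots well above background, 3.83% and 3.54% outliers and 0 saturated spots. The median standard error was 0.111, and the number of arrays limits the precision.

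Each gene stands for its brightest probe by mean log2 intensity over both arrays and channels. All 9 genes were named with every probe, and from the wider lists every receptor, every tested response gene, and elsewhere the 3 called genes with the largest ratio plus those at 2-fold or more. *Rdh10*, *Adh1* and *Cyp1b1* come from this rule. The value of 1 tested response gene is not reported here. The 9 genes, the lists and the tests were chosen with earlier results of these data known. The study's cut-offs of intensity and fold were applied here to median-centered ratios of processed signals with 15 as the lowest value, a centering and floor that the study does not state. Alternatives were processed signals, median centering, a normexp offset of 16, no filter on dim probes, outliers kept, the mean of a gene's probes, the deposited scores and single arrays. The pools are labeled as separate samples. Each p-value rests on the spread between these 2 arrays and on a spread that limma shares across all tested probes. Of 8.14 degrees of freedom, 7.14 came from the shared spread. With median centering only the shared spread counted, and the standard error of every tested member gene was 0.216. No p-value covers variation beyond these arrays.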

Additional observations from a re-analysis of the deposited data

How the results depend on the processing

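Across the alternatives, none of the 8 tested genes changed the sign of its log2 ratio, except *Rarb* on array 1 alone (-0.03). The 6696 changed probes numbered 2506 with processed signals, 3532 under median centering, and 4334 in the deposited scores. The 2 risen genes stayed 2 except with the deposited scores, where 0 were called and 3 had an unadjusted limma p below 0.05. The 4 fallen genes became 0 with processed signals (4 at an unadjusted p), 1 with median centering (*Cyp26b1*) and 0 with the deposited scores (3 at an unadjusted p). They became 3 with the offset of 16, without the filter and with the maximum likelihood prior, an alternative chosen after seeing the data, each time through the loss of *Dhrs3* (adjusted p of 0.0594, 0.0602 and 0.0515). In the wider lists 9 genes fell. With processed signals 4 were called, all 4 among these 9. With the deposited scores 5 were called, of which 1 (*Rdh10*) was among the 9 and 4 (*Fabp5*, *Ncoa2*, *Rxra* and *Rxrb*) were not. With the mean of all tested probes of a gene 11 were called. Lowering the 2-fold limit of the rule without a test to 1.5-fold raised the passing genes from 1 to 2, and leaving out either array gave 1. The causes were not tested. Each array holds its control and BIO pair, so the test of the ratios against 0 was already a paired one. There is a single group of ratios, and no further pairing was possible. A single array gives no test.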
